A study of Mus musculus with 25 samples.

Results

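Mitochondrial ribosomal protein genes were followed across thymocyte samples of mice that were measured on Illumina bead arrays. The genes were those whose symbol in the platform's probe annotation starts with Mrpl or Mrps followed by a digit, kept where at least 1 probe had a detection p-value below 0.05 on at least 3 of the 25 arrays. The annotation named 76 such genes through 128 probes, and 75 of them were kept among the 15533 genes tested. Mrpl32 was the gene not kept, with a signal detected on 0 arrays. Of the 75 genes, 49 encode proteins of the large subunit and 26 encode proteins of the small subunit. The large subunit set held 29 proteins listed with a bacterial counterpart and 19 without one, the small subunit set held 15 and 9, and the remaining 3 genes (Mrps18a, in the large subunit, and Mrps18b and Mrps18c, in the small one) are paralogs of bacterial S18. A signal was detected on all 25 arrays for 69 of the 75 genes. Mrpl21 was detected on 3 arrays and Mrps14 on 4, and the other genes on at least 22.

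The series deals with cell competition in the turnover of thymocytes, and its samples, apart from 1 without a cell type, are labelled CD4-CD8-CD3-CD25+, the compartment that holds the TN2 stage (with CD44) and the TN3 stage (without CD44). Its stated comparison sets young cells against old cells that had been with or without competition. The 6 samples of young cells carried CD45.2 and were C57BL/6 cells belonging to the host. Another 6 samples held old cells with competition, B6/Ly5.1 cells of donor origin (CD45.1) recovered from wild-type hosts that are described as competitive. The 9 samples of old cells without competition held donor-origin cells of the strain F1(WB x B6/Ly5.1), recovered from Rag2-/-γc-/-KitW/Wv hosts that are described as non-competitive. Rag2 and the common gamma chain of cytokine receptors are missing in these hosts and Kit is mutated, and 1 of the 9 samples is the one without a cell type. TN2 controls (n = 2) and TN3 controls (n = 2) were wild-type B6/Ly5.1 cells. Whether replicate samples were taken from different animals is not stated, and the p-values therefore reflect only the variation among these samples, which may be technical. Strain and, in part, host differ between the groups along with age and competition, and their parts cannot be told apart. Whether young cells and old cells with competition came from the same hosts is not stated. A pairing of their samples was not modelled.

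The mitochondrial ribosome sits inside the organelle and translates the few proteins that mitochondrial DNA encodes, all of them subunits of the respiratory chain and ATP synthase. Its RNAs come from mitochondrial DNA, but all of its proteins are encoded by nuclear genes, made in the cytosol and imported. Many of these proteins descend from those of the bacterial ancestor, and others were added later in evolution and cover the outside of both subunits. Thymocytes pass through phases of rapid division and growth around the stages sampled here, and growing cells need new mitochondria.

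Nuclear genes for mitochondrial proteins are known for promoters with short sites for the transcription factors NRF1, GABP (of the ETS family) and YY1. Promoter entries of RefSeq (GRCm38.p6), 300 bases each, were found for 66 of the 75 genes, with 72 promoters in all; no entry was found for Mrpl13, Mrpl15, Mrpl19, Mrpl38, Mrpl4, Mrpl54, Mrps28, Mrps34 and Mrps35. Each promoter was searched on both strands for GCATGCGC (core of the NRF1 site, reverse complement GCGCATGC), CCGGAAG (ETS and GABP, reverse complement CTTCCGG) and AAGATGGC (YY1, reverse complement GCCATCTT). CCGGAAG stood in 26 of the 72 promoters (36.1%), against 8.86% of all 32851 promoters of the table. AAGATGGC stood in 11 (15.3%), against 2.75% of all promoters. GCATGCGC stood in 7 (9.72%), against 2.71% of all promoters. At least 1 of the 3 motifs stood in 37 of the 72 (51.4%), against 13.3% of all promoters, and a CCGGAAG and an AAGATGGC motif shared bases in 0 of the 72. The 4 promoters below are those of the genes with the smallest p in the comparisons of young and old cells among genes with an entry, and are shown because these genes carry the differences described further on. Each runs 5′ to 3′ on the strand of its gene, from upstream of the first transcribed base into the transcript, with matches to the motifs in capitals. The Mrpl45 promoter (chr11:97315466-97315765, + strand) and the Mrpl40 promoter (chr16:18876588-18876887, - strand) held none of the 3 motifs. The Mrpl37 promoter (chr4:107066817-107067116, - strand) held AAGATGGC 26 bases after the first transcribed base. The Mrpl53 promoter (chr6:83108858-83109157, + strand) held CCGGAAG starting 59 bases before the first transcribed base and its reverse complement starting 16 bases before it. A match is a description of the letters and not of a bound site.
Mrpl45: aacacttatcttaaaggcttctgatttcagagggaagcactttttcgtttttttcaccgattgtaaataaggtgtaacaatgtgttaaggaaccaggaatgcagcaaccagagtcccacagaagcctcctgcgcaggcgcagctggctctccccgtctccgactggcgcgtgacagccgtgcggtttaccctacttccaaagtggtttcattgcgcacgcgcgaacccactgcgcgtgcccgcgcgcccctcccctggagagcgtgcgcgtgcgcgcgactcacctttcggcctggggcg
Mrpl37: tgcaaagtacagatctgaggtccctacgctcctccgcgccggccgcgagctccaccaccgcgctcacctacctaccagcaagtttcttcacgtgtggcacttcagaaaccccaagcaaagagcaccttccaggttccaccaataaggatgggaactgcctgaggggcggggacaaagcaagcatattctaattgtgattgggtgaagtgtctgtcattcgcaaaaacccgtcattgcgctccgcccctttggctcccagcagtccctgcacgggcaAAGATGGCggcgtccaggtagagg
Mrpl40: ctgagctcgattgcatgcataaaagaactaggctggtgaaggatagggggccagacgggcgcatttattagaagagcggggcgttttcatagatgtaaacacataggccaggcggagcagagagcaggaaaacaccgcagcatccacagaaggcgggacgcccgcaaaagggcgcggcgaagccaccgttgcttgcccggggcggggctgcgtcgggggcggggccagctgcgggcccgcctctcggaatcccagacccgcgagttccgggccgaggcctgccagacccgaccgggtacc
Mrpl53: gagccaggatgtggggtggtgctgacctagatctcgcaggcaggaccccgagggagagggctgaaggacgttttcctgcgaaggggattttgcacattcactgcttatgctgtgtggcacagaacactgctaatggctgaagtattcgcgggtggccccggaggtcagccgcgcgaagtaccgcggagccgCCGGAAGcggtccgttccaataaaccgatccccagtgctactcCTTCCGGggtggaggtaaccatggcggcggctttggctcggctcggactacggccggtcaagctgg

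The arrays lay on 5 chips. Of all probes, 41.1% to 50.1% were detected per array, and the median intensity ran from 86 to 104.2. Chips 2 and 4 each carried 3 arrays of young cells and 3 of old cells with competition, at alternating positions, so that position and group cannot be told apart. Chips 1 and 5 held the old cells without competition, and chips 3 and 5 the TN2 and TN3 controls, so chip and group cannot be told apart between these groups and the first pair. Cd3d and Cd3e, which encode chains of the T cell receptor complex, had group means between 8.17 and 10.61 on the normalized log2 scale used for all levels here. Cd44, the marker that separates TN2 from TN3, had a mean of 6.34 ± 0.37 (SD, n = 2) in TN2 controls and 5.68 ± 0.44 (n = 6) in young cells, against 4.46 to 4.55 in the other 3 groups. The probe of Il2ra, which encodes the CD25 of the labels, read near the floor of the scale, with group means of 4.27 to 5.43, and was detected on 0 of the 2 TN3 arrays. In bulk samples, fewer cells of a type and less RNA per cell cannot be told apart.

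Array 6 of the old cells with competition stood apart from the other 5 of its group. It had the lowest value of its group for 64 of the 75 mitochondrial ribosomal protein genes and the lowest of all 25 arrays for 41. For 71 genes it lay below the mean of the other 5, and for 32 it lay more than 1 below on the log2 scale, which held for 8.8% of all genes. The median deviation over the 75 genes was -0.90, against -0.03 over all genes. The shares of all genes that were lowest on this array are not given here. The gene farthest below was Mrpl17, a large subunit protein with a bacterial counterpart, with 5.53 on array 6 and at least 8.87 on the other 5. Mrpl12, the ribosomal stalk protein, deviated by -2.20 and Mrps18b by -1.87. A few genes were not lower on this array, such as Mrps25 (0.21 above), Mrpl49 (0.16), Mrpl58 (0.09) and Mrpl51 (0.06).

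Other genes differed on the same array. The listed genes of CD4+CD8+ (double-positive) thymocytes, a later stage that the labels exclude, averaged 7.97 there and 6.11 to 6.34 on the other 5 arrays of the group. Cd4 read 8.86 against 4.55 to 5.31, whereas Cd8b1 read 6.54 against 7.57 to 7.97. The cell division genes averaged 6.95 against 7.90 to 8.02, and the cytosolic ribosomal protein genes 8.96 against 9.57 to 9.69. Myc, a transcription factor of cell growth, read 4.67 against 6.51 to 6.85. The share of probes detected on the array, 46.8%, lay at the edge of the 46.9% to 49.4% of the others. The part of these differences in the values of the mitochondrial ribosomal protein genes was not tested, and the counts and medians below are given with and without this array where it changed them.

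**Figure D1:**
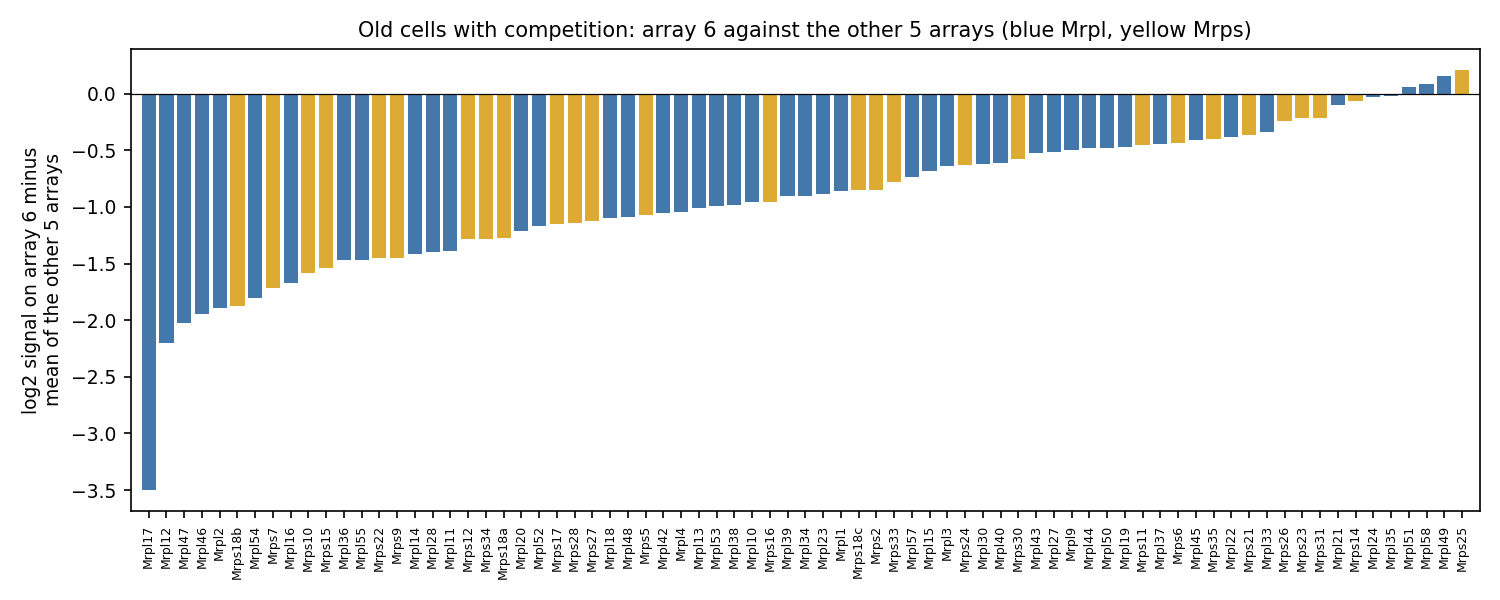
Difference between array 6 of the old cells with competition and the mean of the other 5 arrays of that group, in log2 units, as 1 bar for each of the 75 genes (blue, Mrpl; yellow, Mrps). Bars below 0 show lower values on array 6; 71 of the 75 genes lie below 0, down to -3.50 for Mrpl17.

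Averaged over the 75 genes after quantile normalization, the log2 level was lowest in the TN2 and TN3 controls and in young cells and highest in old cells without competition, an order that depends on the scaling, as the comparisons show. The TN2 arrays had means of 7.23 and 7.18 and the TN3 arrays 7.29 and 7.19. Young cells ran from 7.16 to 7.36 with a median of 7.25. Old cells with competition read 6.55 on array 6 and 7.43 to 7.56 on the other 5, all 5 above every young array, and old cells without competition ran from 7.30 to 7.66 with a median of 7.50. The mean was 7.21 ± 0.04 (SD, n = 2) in TN2 controls, 7.24 ± 0.07 (n = 2) in TN3 controls and 7.25 ± 0.08 (n = 6) in young cells. Among old cells it was 7.31 ± 0.38 (n = 6) with competition and 7.48 ± 0.12 (n = 9) without it. Without array 6 the old cells with competition averaged 7.47 ± 0.05 (n = 5). The ranges of TN2, TN3 and young arrays overlapped, as did those of the 2 old groups. On the same arrays, the cytosolic ribosomal protein genes ran from 9.46 to 9.69 outside array 6.

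**Figure D2:**
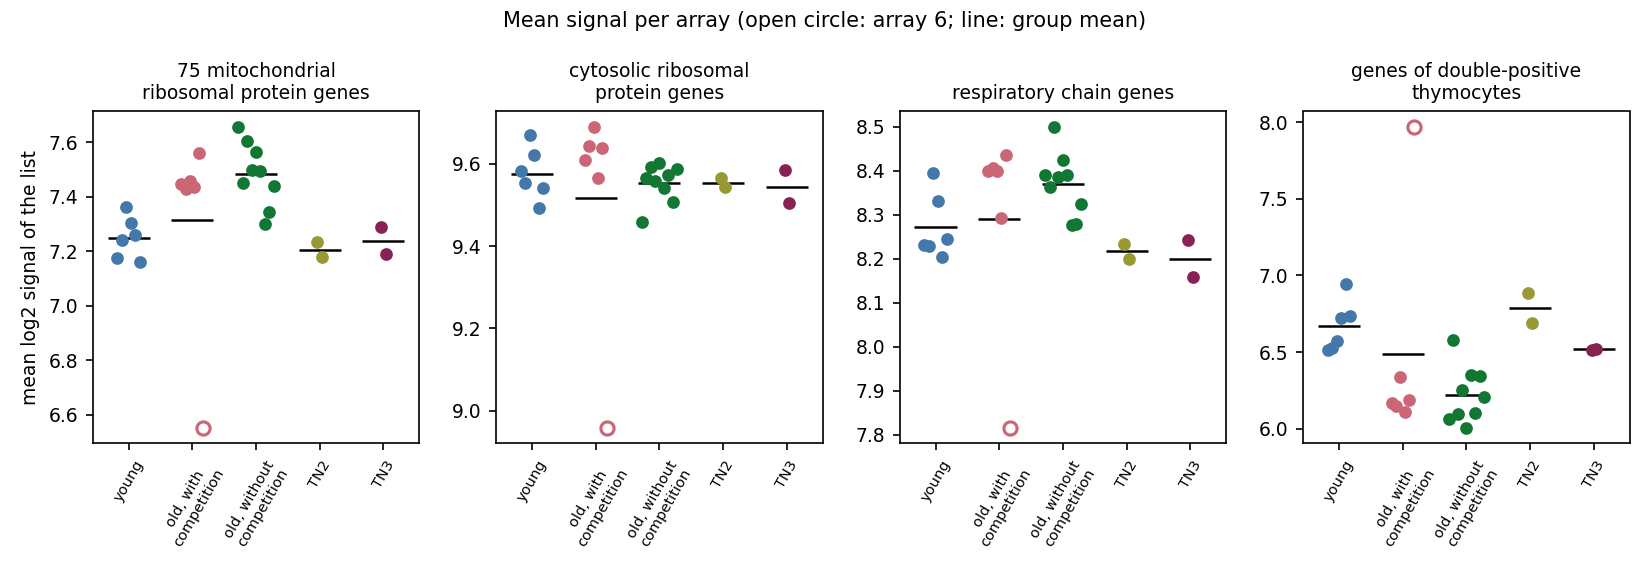
Mean normalized log2 signal per array (vertical axes) of the 75 mitochondrial ribosomal protein genes, the cytosolic ribosomal protein genes, the respiratory chain genes (with those of ATP synthase) and the listed genes of double-positive thymocytes, by group. Each point is an array, the open circle is array 6 of the old cells with competition and the line is the group mean; array 6 is low in the first 3 panels and high in the last, at 7.97.

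**Figure D3:**
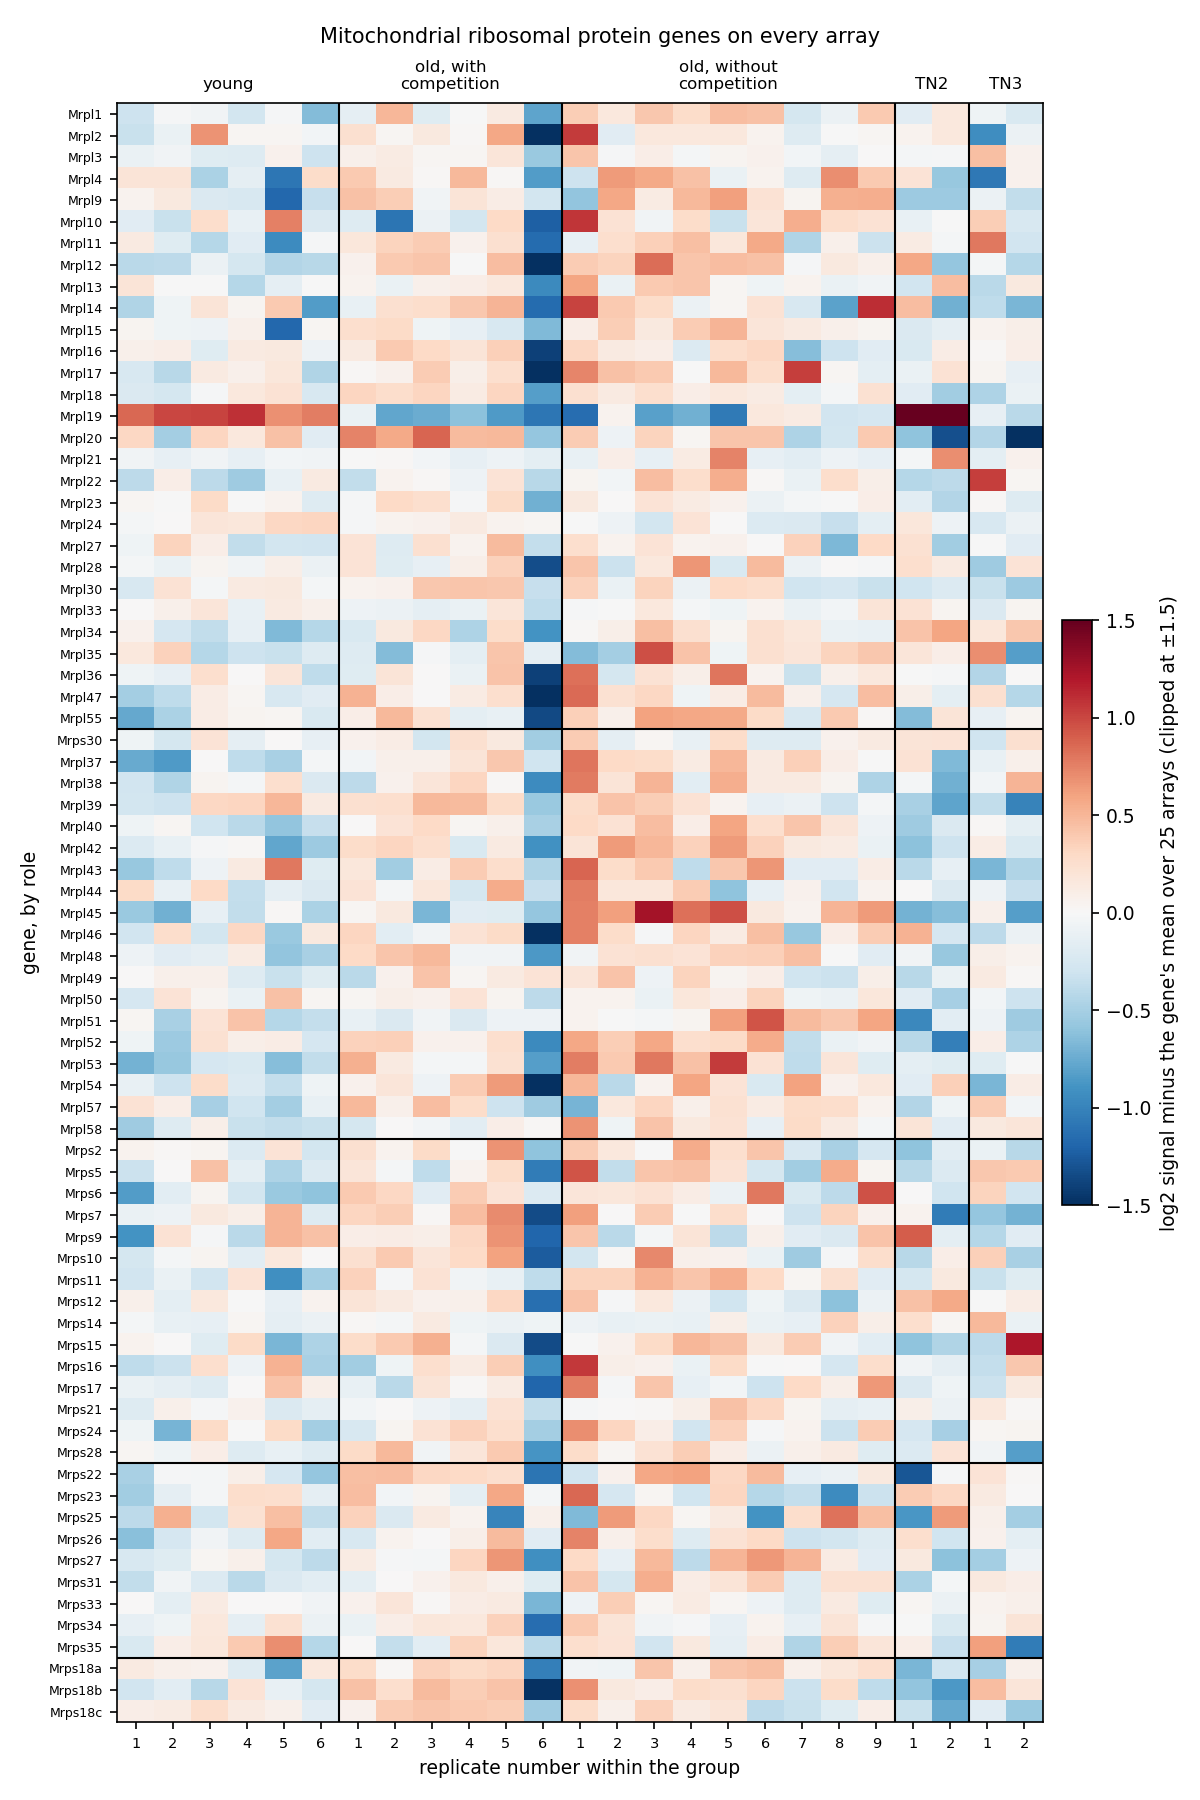
Log2 signal of each of the 75 genes on each of the 25 arrays minus the mean of the gene over all arrays, cut at 1.5 in both directions for display, with genes ordered by subunit and by whether a bacterial counterpart is listed. The column of array 6 is low in most genes, and Mrpl19 is high in young cells and TN2 controls.

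After quantile normalization, old cells without competition had higher values than young cells for most of these transcripts, a direction that turned under scaling to a common median. Of the 75 genes, 9 (12%) rose, against 3.17% of all genes, and 2 (2.67%) fell, against 5.76% of all genes (limma, adjusted p below 0.05 over all 15533 genes). The difference of old cells without competition minus young cells was above 0 for 65 genes (86.7%; all genes, 54.8%), with a median of 0.24 on the log2 scale against 0.02 for all genes. Single genes ran from -1.34 to 1.01. Without array 6, which belongs to neither group, 16 rose (all genes, 5.31%) and 2 fell (7.38%). That array enters this fit through the shared estimates of the spread and of the chip correlation. With arrays scaled to a common median in place of quantile normalization, the median of the 75 genes turned to -0.28 and that of all genes to -0.17, and 1 gene rose (0.727% of all genes) and 6 fell (24.6%), so the direction of the whole set in this comparison depends on the scaling.

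Large subunit proteins without a bacterial counterpart held most of the rises found after quantile normalization; of all 9 rises, only that of Mrpl45 remained called under scaling to a common median. Of these 19 genes, 6 rose and 18 had a difference above 0, with a median of 0.30. Of the 29 large subunit genes with a bacterial counterpart, 0 rose in limma and 2 fell, with 24 above 0 and a median of 0.20. Of the 15 small subunit genes with a bacterial counterpart, 2 rose, with 14 above 0 and a median of 0.18. Of the 9 without one, 1 rose, with 7 above 0 and a median of 0.09. Whether these classes differ from each other was not tested. Without array 6, 6 of the 29 large subunit genes with a bacterial counterpart rose, so the difference in counts between the classes rests in part on that array.

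Mrpl45, a large subunit protein near the exit of the peptide tunnel, had the largest rise. Its levels (lowest, median, highest) were 4.43, 4.73 and 5.18 in young cells. Old cells read 4.46, 4.98 and 5.30 with competition and 5.21, 5.80 and 6.41 without it. The TN2 controls read 4.45 and 4.51 and the TN3 controls 5.23 and 4.33. Every array of old cells without competition lay above every young array, and 1 of the 2 TN3 arrays reached into their range. The rise over young cells was 1.01 ± 0.18 (log2 ± SE, 2.02-fold, adjusted p = 0.000631). Mrpl45 was represented by 1 probe, detected on 24 arrays, and it remained called under scaling to a common median (0.67, adjusted p = 0.00844). Outside old cells without competition its levels, 4.33 to 5.30, lay near the floor of the scale.

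Mrpl53, a large subunit protein without a bacterial counterpart, read 4.82, 5.06 and 5.29 in young cells. Old cells read 4.70, 5.58 and 6.06 with competition and 5.14, 5.92 and 6.57 without it. The TN2 controls read 5.38 and 5.34 and the TN3 controls 5.34 and 5.52. The 5 arrays of old cells with competition other than array 6 lay above all young arrays, while the old cells without competition overlapped with young cells at their low end. The rise in old cells without competition was 0.83 ± 0.20 (1.77-fold, adjusted p = 0.0084).

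Mrpl37, also of the large subunit without a bacterial counterpart, read 6.44, 6.86 and 7.30 in young cells. Old cells read 6.99, 7.37 and 7.70 with competition and 7.29, 7.56 and 8.10 without it. The TN2 controls read 7.51 and 6.64 and the TN3 controls 7.19 and 7.37. The young range met the range of the old cells without competition at its upper end, and the 4 controls lay between 6.64 and 7.51. The rise was 0.70 ± 0.16 (1.63-fold, adjusted p = 0.00465), and a second Mrpl37 probe gave 0.40 (adjusted p over all probes = 0.204).

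Of the other 3 rises in that class, Mrpl42 had levels of 7.95, 8.57 and 8.74 in young cells and 8.63, 9.07 and 9.37 in old cells without competition. The highest young array lay just above the lowest old one, and the rise was 0.59 ± 0.17 (1.51-fold, adjusted p = 0.0296). Mrpl40 ran from 7.27 to 7.90 in young cells and from 7.79 to 8.46 in old cells without competition, with a rise of 0.55 ± 0.12 (1.46-fold, adjusted p = 0.00478). Mrpl58, a peptidyl-tRNA hydrolase built into the large subunit, rose by 0.47 ± 0.11 (1.38-fold, adjusted p = 0.0105), but read -0.06 (adjusted p = 0.827) under scaling to a common median. Without single arrays, Mrpl42 lost its call in 5 cases, with an adjusted p of up to 0.092 without young replicate 5.

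In the small subunit, Mrps11 (bacterial S11) read 5.28, 5.92 and 6.41 in young cells and 6.04, 6.54 and 6.75 in old cells without competition. It rose by 0.60 ± 0.15 (1.52-fold, adjusted p = 0.00997), and its second probe gave 0.55 (adjusted p over all probes = 0.133). Mrps6 (bacterial S6) rose by 0.59 ± 0.19 (1.5-fold, adjusted p = 0.0497). That call lay at the threshold and was lost in 18 of the 25 repeats that each left out 1 array, with an adjusted p of up to 0.126. Mrps31, without a bacterial counterpart and named here as the ninth rise after its value was seen, rose by 0.42 ± 0.11 (1.34-fold, adjusted p = 0.0193).

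Mrpl12, the stalk protein, had 7.61, 7.65 and 7.97 in young cells and 8.03, 8.44 and 8.89 in old cells without competition. It was named because its groups did not overlap, as was the case for 2 of the 75 genes in the higher direction (Mrpl12 and Mrpl45; all genes, 1.06%) and for 1 in the lower (Mrpl19; all genes, 2.14%). Its difference of 0.68 ± 0.26 did not pass with all arrays (adjusted p = 0.125) and passed without array 6 (0.68, adjusted p = 0.00306). On array 6 Mrpl12 read 6.12, against at least 8.05 on the other 5 of that group.

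Mrpl19, a large subunit protein at the interface of the subunits, went the other way. Its levels were 5.91, 6.16 and 6.33 in young cells. Old cells read 4.14, 4.47 and 5.13 with competition and 4.09, 4.94 and 5.39 without it. The TN2 controls read 6.87 and 6.81 and the TN3 controls 5.11 and 4.82. Young cells and TN2 controls lay above all arrays of the other 3 groups with no overlap. Against young cells, Mrpl19 fell by 1.34 on the log2 scale (SE 0.19, adjusted p = 4.85e-05) in old cells without competition and by 1.60 (SE 0.21, adjusted p = 2.66e-05) in old cells with competition. These comparisons share the young arrays. Its other kept probe read near the floor in all groups (4.10 to 4.46, detected on 8 arrays) and gave -0.15 and 0.08 in the same comparisons, so the fall rests on 1 probe.

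Markers of the TN2 stage were high in the same groups as Mrpl19. The mean of the 8 measured TN2-stage genes ran from 5.30 to 5.99 in young cells and was 6.27 and 6.23 in TN2 controls, against 4.44 and 4.59 in TN3 controls, 4.19 to 4.41 in the old group with competition and 4.22 to 4.56 in the old group without it. Of these 8 genes, 7 fell in old cells with competition (6 without array 6), 8 in old cells without competition and 7 in TN3 against TN2 controls. Of all genes, 2.5%, 5.76% and 0.785% fell in these comparisons with all arrays. The mean of the 10 measured TN3-stage genes was 6.45 and 6.65 in TN2 controls. It ran from 7.61 to 7.98 in young cells and was 8.07 and 8.14 in TN3 controls. In old cells it ran from 7.78 to 8.19 with competition and from 7.84 to 8.13 without it. By that list young cells lay nearer to TN3 than to TN2 controls. The 12 measured myeloid genes averaged 5.60 to 6.34 in young cells, 4.52 to 4.67 and 4.56 to 4.97 in the old groups, 6.02 and 5.72 in TN2 controls and 5.04 and 4.87 in TN3 controls. Of these, Lyz1, Lyz2, Mpo, Tyrobp, Fcer1g, H2-Ab1 and Clec10a fell in both old groups against young cells. Cst3, Cd74 and Ctss were lower without a call in either group. Csf1r and Cd68 were higher without a call (0.04 and 0.16 with competition, 0.10 and 0.30 without it). Mpo is in both the myeloid and the TN2-stage list. The part of these differences in the values of Mrpl19 and of the other members was not tested.

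Mrpl24, a large subunit protein with a bacterial counterpart, ran from 8.02 to 8.37 in young cells and from 7.69 to 8.24 in old cells without competition. Its fall of 0.28 (SE 0.08, adjusted p = 0.0376) was lost when any of 9 single arrays was left out, with adjusted p of 0.0504 to 0.103.

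**Figure D4:**
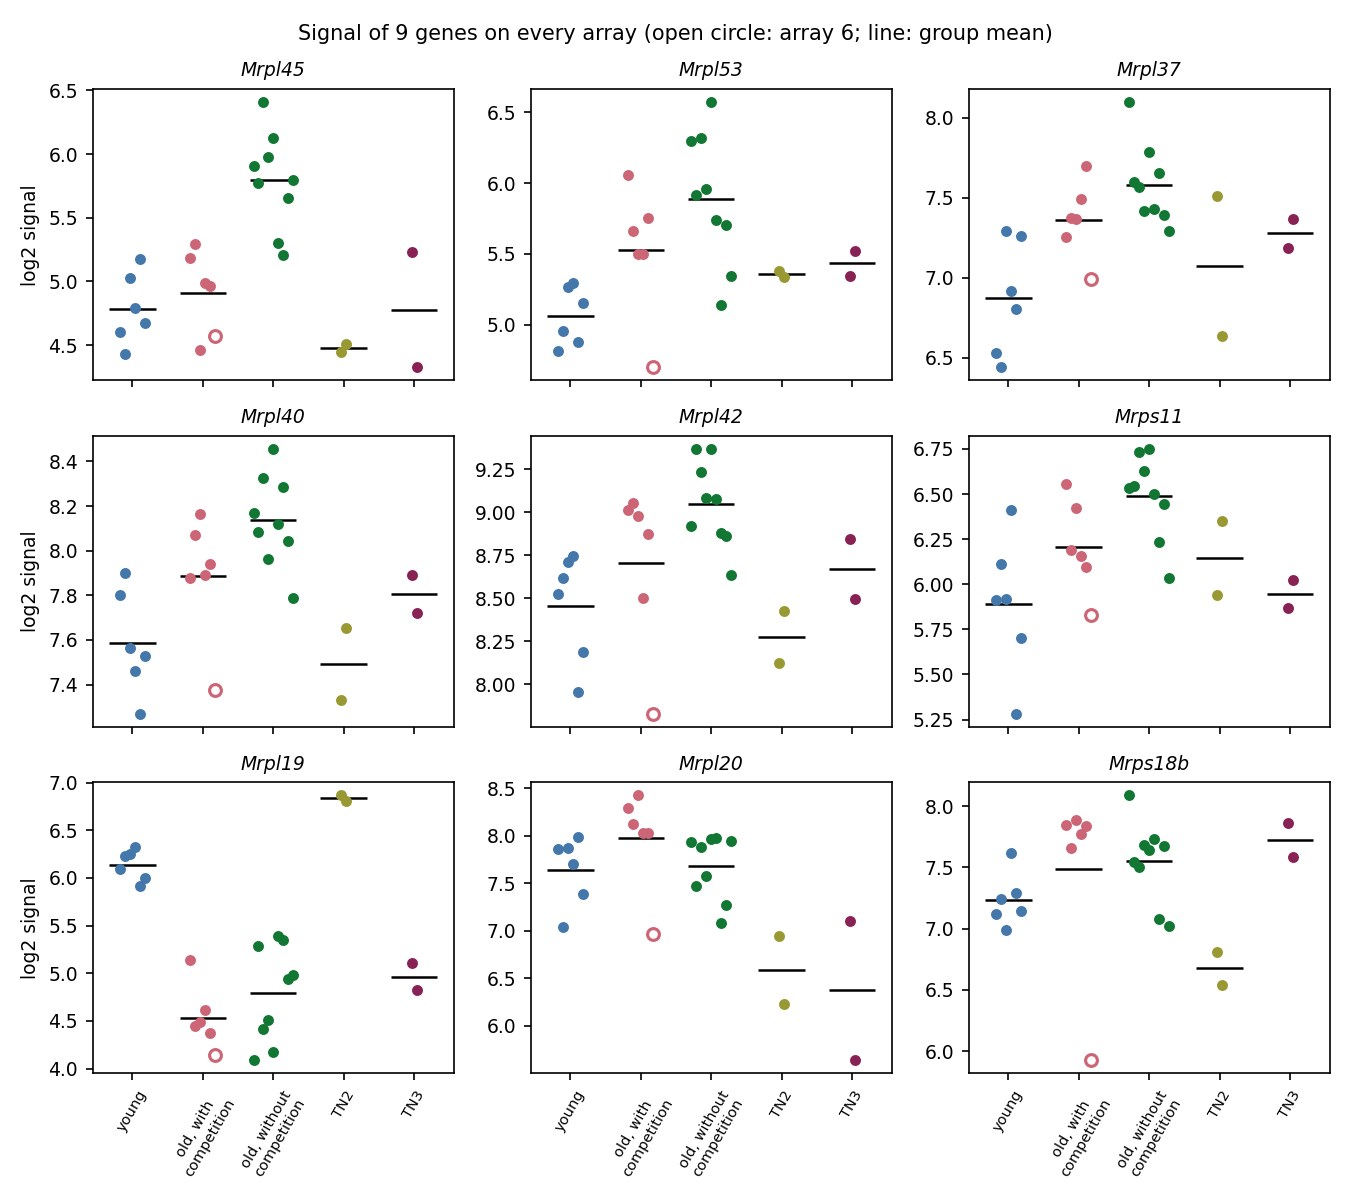
Normalized log2 signal (vertical axes) of 9 mitochondrial ribosomal protein genes on each array, by group, with lines at the group means and an open circle for array 6 of the old cells with competition. Mrpl45 is highest in old cells without competition, Mrpl19 is high in young cells and TN2 controls, and array 6 is the lowest array of its group for most of the 9.

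Old cells with competition differed from young cells in few single genes as long as array 6 was included. Of the 75 genes, 0 rose in limma (all genes, 0.418%; 5 members at an unadjusted p below 0.05) and 1 fell, Mrpl19 (all genes, 2.5%). The median difference was 0.10 on the log2 scale against 0.005 for all genes, with 52 of 75 above 0 (69.3%; all genes, 51.2%). Without array 6 the median was 0.24, with 67 above 0 (89.3%), and 2 genes rose (all genes, 1.46%) and 1 fell (2.68%). The groups did not overlap for 0 genes in the higher direction (all genes, 0.483%) and 1 in the lower (2.16%), and without array 6 for 6 (1.97%) and 1 (3.18%). Under scaling to a common median the median of the 75 genes kept its direction, at 0.12 against 0.01 for all genes.

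The rises without array 6 were those of Mrpl12 and Mrps18b. Mrpl12 was higher by 0.60 ± 0.17 without that array (adjusted p = 0.0434). Mrps18b, 1 of the S18 paralogs, read 6.99, 7.19 and 7.61 in young cells, and 5.93 on array 6 against at least 7.66 on the other 5. Its rise without array 6 was 0.57 ± 0.15 (adjusted p = 0.0322). The genes next to Mrpl19 by p with all arrays were Mrpl37 (0.49, adjusted p = 0.162), Mrps6 (0.55, adjusted p = 0.203) and Mrpl40 (0.30, adjusted p = 0.354), none of which passed. With arrays weighted by their fit, which gave array 6 a weight of 0.215 against 1.37 to 1.76 for the others of its group, 5 genes rose (all genes, 2.41%) and 1 fell (4.52%), the rises among them those of Mrpl37 (0.56, adjusted p = 0.0176) and Mrps6 (0.59, adjusted p = 0.0421).

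Young cells and old cells with competition could also be compared within each of their chips, 3 arrays against 3. On chip 2, which held array 6, the median of the 75 differences was -0.002, with 36 above 0, and on chip 4 it was 0.15, with 60 above 0. Mrpl19 fell on both chips, by 1.62 (adjusted p = 0.0297) and 1.58 (adjusted p = 0.0196).

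The direct comparison of the old groups gave a single call among these genes. Mrpl45 was higher without competition than with it by 0.88 ± 0.18 (1.84-fold, adjusted p = 0.0115), and by 0.82 (adjusted p = 0.0213) without array 6. That was 1 rise in 75 (all genes, 0.412%), with 0 falls in limma (all genes, 0.83%; 1 member at an unadjusted p below 0.05), and the same counts without array 6 (all genes, 0.682% and 1.49%). The median difference was 0.16 with all arrays (all genes, 0.02), with 62 above 0 (82.7%; all genes, 55%), and 0.02 without array 6, with 40 above 0 (53.3%), so the shift of the whole set between the old groups rested on array 6. Under scaling to a common median the median was -0.36 (all genes, -0.20), and 0 genes rose (0.277% of all genes) and 8 fell (21.7%). Under that scaling Mrpl45 read 0.49 (adjusted p = 0.0548).

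The next genes by p did not pass in this comparison. Mrpl51, of the large subunit without a bacterial counterpart, read 5.42 to 5.57 with competition and 5.60 to 6.58 without it. It was the single gene of the 75 whose old groups did not overlap in the higher direction (all genes, 0.309%), with 0 in the lower (all genes, 0.399%); without array 6 there was 1 in the higher direction (0.534%) and 1, Mrpl20, in the lower (1.11%). Its difference of 0.47 had an adjusted p of 0.194, and its 2 other probes gave -0.10 and -0.49; it turned to -0.04 with the mean of its probes and to -0.02 under scaling to a common median. Mrpl10, the base of the stalk, differed by 0.69 (adjusted p = 0.148), and Mrps17 (bacterial S17) by 0.42 (adjusted p = 0.331), or by -0.14 under scaling to a common median.

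**Figure D5:**
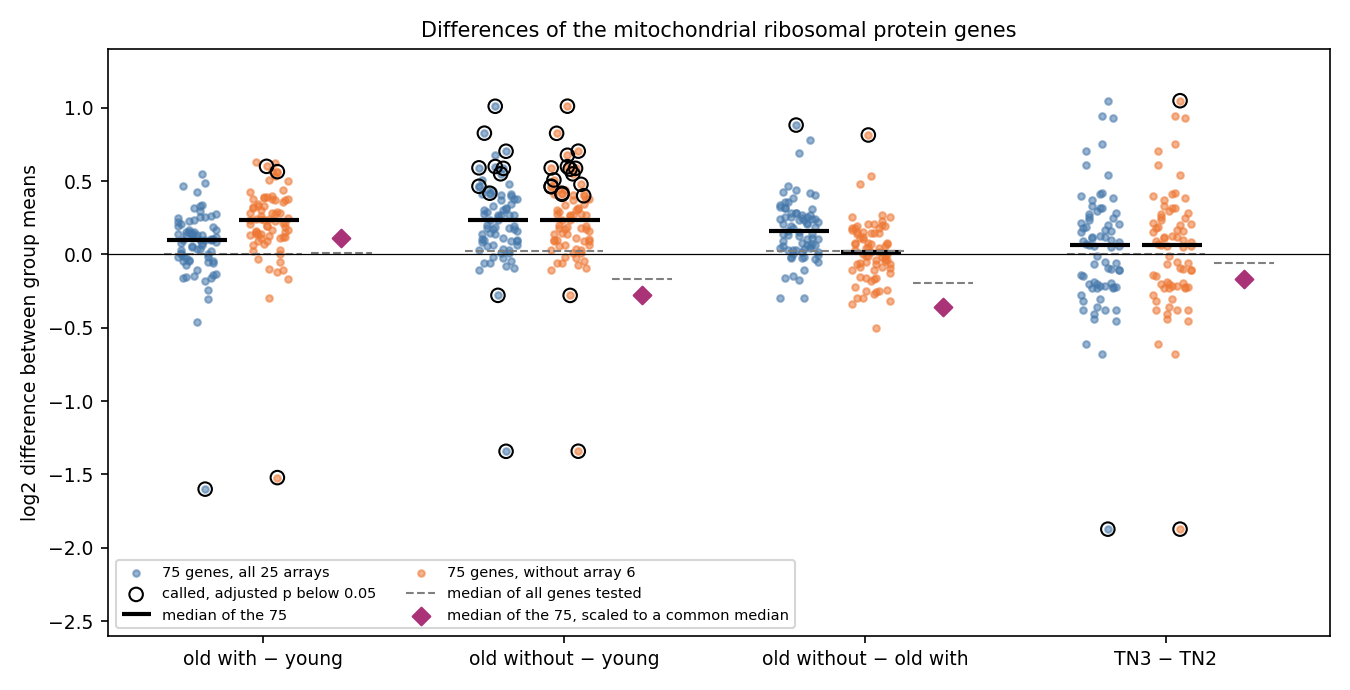
Log2 difference (vertical axis) of each of the 75 genes in 4 comparisons, with all arrays (blue) and without array 6 of the old cells with competition (orange). Black circles mark called genes, black bars the medians, grey dashed lines the medians of all genes and purple diamonds the medians of the 75 genes under scaling to a common median, which lie on the other side of 0 in the comparisons of old cells without competition with young cells (-0.28) and with old cells with competition (-0.36) and of TN3 with TN2 (-0.17).

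TN3 and TN2 controls, the stages on either side of CD44 loss, differed in 1 of the 75 genes. Mrpl19, at 6.87 and 6.81 in TN2 and 5.11 and 4.82 in TN3, fell by 1.87 on the log2 scale (SE 0.36, adjusted p = 0.00628). That call was lost without TN2 replicate 1 (adjusted p = 0.0511), without TN3 replicate 2 (0.0674) and in a fit of these groups alone (0.177), which called 0 genes of all. The counts were 0 rises in limma (all genes, 0.38%; 2 members at an unadjusted p below 0.05) and 1 fall (0.785%), and 1 rise (0.779%) and 1 fall (1.15%) without array 6. The median difference was 0.06 (all genes, 0.00), with 41 of 75 above 0 (54.7%; all genes, 50.1%), and it was -0.17 (all genes, -0.06) under scaling to a common median. The groups of 2 arrays did not overlap for 17 genes in the higher direction and 10 in the lower, against 18.5% and 18.8% of all genes.

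Mrps18b read 6.81 and 6.54 in TN2 and 7.87 and 7.59 in TN3 controls, a difference of 1.05 ± 0.43 (2.07-fold) that did not pass with all arrays (adjusted p = 0.347) and passed without array 6 (adjusted p = 0.0262). Mrpl22 (bacterial L22, in the wall of the peptide tunnel) read 6.22 and 6.25 in TN2 and 7.68 and 6.68 in TN3 (0.94, adjusted p = 0.112; without TN3 replicate 2, 1.44 and 0.0142). Mrps15 read 5.92 and 6.08 in TN2 and 6.13 and 7.74 in TN3 (0.93, adjusted p = 0.467). The paired TN3 values of Mrpl22 and Mrps15 lay far apart, each with 1 array high.

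Against TN3 controls, Mrpl20 was higher in all 3 groups of young and old cells. This large subunit protein with a bacterial counterpart read 7.11 and 5.64 in TN3 and 6.95 and 6.23 in TN2 controls, 7.04 to 7.98 in young cells, 6.96 to 8.42 in old cells with competition and 7.08 to 7.97 in old cells without competition. The differences were 1.27 ± 0.36 in young cells (adjusted p = 0.0478), 1.60 ± 0.36 in old cells with competition (adjusted p = 0.0133) and 1.30 ± 0.34 in old cells without competition (adjusted p = 0.0429), and share the TN3 arrays. The second Mrpl20 probe read near the floor (4.17 to 4.28), so these calls rest on 1 probe. Mrpl19 was higher in young cells than in TN3 controls (1.17 ± 0.29, adjusted p = 0.0243), and Mrpl45 was higher in old cells without competition (1.02 ± 0.27, 2.02-fold, adjusted p = 0.0426). These calls depended on single arrays: of 25 repeats that each left out 1 array, the rises were fewer in 19 in young cells, and in 14 in old cells without competition. In old cells with competition they were fewer in 1, that without TN3 replicate 2, and a fit of only the groups compared called 0 genes of the 75 in limma.

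No other gene of the 75 passed against TN3 with all arrays. The counts of rises were 2 in young cells (all genes, 2.49%), 1 in old cells with competition (2.3%) and 2 in old cells without competition (1.11%), with 0 falls in limma in each (all genes, 1.18%, 1.47% and 1.24%; 5, 1 and 0 members at an unadjusted p below 0.05). Without array 6 the rises were 3 (3.91%), 7 (4.79%) and 4 (2.76%), again with 0 falls in limma (2.13%, 2.88% and 2.16%; 6, 1 and 0 members at an unadjusted p below 0.05). The medians were -0.04, 0.04 and 0.26 with all arrays and 0.20 in old cells with competition without array 6. Scaling to a common median moved them to 0.73, 0.87 and 0.47, against 0.25, 0.23 and 0.06 for all genes, and 15 genes rose in young cells (19.4% of all genes) and 24 in old cells with competition (18.5%). Under that scaling the direction in young cells was thus the opposite.

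Over the 5 group means the widest range was that of Mrpl19 (2.30), followed by Mrpl20 (1.60), Mrpl45 (1.32) and Mrps18b (1.05). The narrowest ranges were those of Mrps33, of the small subunit without a bacterial counterpart (0.099), and Mrpl16 (bacterial L16, 0.12). Both of the latter were low on array 6, at 8.29 and 6.20. Where a gene had several kept probes (30 of the 75), at least 1 probe had the opposite sign in 11 genes in each comparison of old with young cells, in 14 between the old groups and in 10 between TN3 and TN2.

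Other genes that serve the mitochondrial ribosome were compared between old cells without competition and young cells. Of all genes, 3.17% rose and 5.76% fell there, or 5.31% and 7.38% without array 6. Of the 11 measured translation factors 1 rose, the initiation factor gene Mtif3 (0.66 ± 0.19, adjusted p = 0.0284), with a list median of 0.32; without array 6 the elongation factor gene Tufm also rose (0.43, adjusted p = 0.0204). Of the 15 measured mitochondrial tRNA synthetases, Sars2 rose (0.72 ± 0.22, adjusted p = 0.038) and Iars2 fell by 0.70 (SE 0.21, adjusted p = 0.0425), and without array 6 Nars2 fell too (-0.73, adjusted p = 0.0326). Of the 21 measured assembly factors 0 were called in limma, with 3 above and 1 below 0 at an unadjusted p below 0.05, and a median of 0.04. Without array 6, Noa1, a GTPase gene of ribosome assembly, rose (0.42, adjusted p = 0.00526) and Nsun4, which encodes an rRNA methyltransferase, fell (-0.57, adjusted p = 0.0349). Of the 10 measured genes of mitochondrial DNA expression 0 were called in limma, with 3 above 0 at an unadjusted p below 0.05 (0 and 4 without array 6), and a median of 0.21. The 4 measured ribosomal proteins under other names (Dap3, Ptcd3, Chchd1 and Gadd45gip1) had 0 calls in limma, also 0 at an unadjusted p below 0.05; in old cells with competition, Dap3 differed by 0.39 ± 0.13 (adjusted p = 0.145; 0.48 and 0.0275 without array 6).

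Of the 13 measured regulators of mitochondrial biogenesis, 2 rose in old cells without competition against young cells (all genes, 3.17%). Nrf1, the transcription factor of the NRF1 site, rose by 0.40 ± 0.10 (adjusted p = 0.011), and Phb2, a prohibitin of the inner membrane, by 0.59 ± 0.15 (adjusted p = 0.0127). The other listed prohibitin gene, Phb, went the other way without a call (-0.37, adjusted p = 0.266). Gabpa, a GABP subunit, differed by 0.42 (adjusted p = 0.276) and Yy1 by -0.03 (adjusted p = 0.945). Myc differed by 0.63 ± 0.28 (adjusted p = 0.18) with all arrays and passed without array 6 (adjusted p = 0.0298). Without array 6, 4 of the 13 rose in this comparison (all genes, 5.31%), and 2 rose in old cells with competition (all genes, 1.46%). Among the 9 ribosomal protein genes that rose in old cells without competition, 0 promoters held the NRF1 core, 2 the GABP motif and 3 the YY1 motif. Among all 66 of the 75 genes with a promoter entry, the counts were 7, 26 and 11. Whether the 9 genes differ from the 66 was not tested.

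The respiratory chain genes (here with those of ATP synthase) and the cytosolic ribosomal protein genes were set beside the 75 genes, after quantile normalization only. In old cells without competition against young cells, 9 of 76 respiratory chain genes rose (11.8%) and 0 fell in limma (4 members at an unadjusted p below 0.05), with a median of 0.11; without array 6, 16 rose and 1 fell. Of 63 cytosolic ribosomal protein genes 2 rose (3.17%) and 6 fell (9.52%), with a median of 0.06. Without array 6, 4 of them rose and 10 fell. Of all genes, 3.17% rose and 5.76% fell in this comparison, or 5.31% and 7.38% without array 6. In old cells with competition against young cells without array 6, the medians were 0.10 and 0.04, beside 0.24 for the 75 genes. The mitochondrial gene mt-Atp6, the only listed product of the mitochondrial ribosome measured here, differed by -0.43 ± 0.14 in old cells without competition (adjusted p = 0.0589; 0.0382 without array 6). Of 27 measured cell division genes 4 rose (Birc5, Kif11, Tyms and Aurka) and 1 fell (Pcna), or 14.8% and 3.7% beside 3.17% and 5.76% of all genes, with a median of 0.02. Without array 6, Cdk1 and Plk1 also rose and Mcm6 also fell (6 rises, 2 falls). Mki67 differed by 0.25 ± 0.10 (adjusted p = 0.125).

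The other genes whose level most resembled the mean pattern of the 75 genes were Tpi1, an enzyme of glycolysis (Pearson r = 0.954 over 25 arrays), Mthfd1, of folate metabolism (0.936), Lrrc59 (0.935), Stab1 (0.932) and Lyar (0.923). Without array 6, over 24 arrays, they were Tpi1 (0.908), Phlda1 (0.907), Pkm, another enzyme of glycolysis (0.895), Mogs (0.888) and Mia2 (0.888). These arrays share groups and chips, and the values are a description.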

How the data were processed

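The authors deposited an intensity per probe on a linear scale for 46237 probes, without background subtraction or scaling as the values show, each with a detection p-value (the sources used here do not say by which test). A deposited table of log2 values with equal medians (6.51) served as an alternative. RNA was isolated with RNAzol B and amplified with the Ambion MessageAmp kit, per the labels. Intensities were background-corrected from the detection p-values, quantile normalized and put on the log2 scale with neqc (limma 3.58.1, R 4.3.3, offset 16), which understates fold changes of dim genes. Probes with a detection p-value below 0.05 on at least 3 arrays were kept (30174), named through the platform annotation (35784 probes with 1 symbol, 0 with several, 10453 with none) and current RefSeq genes (28620 by gene identifier, 2637 by accession). The probe with the highest mean stood for its gene (15533 genes).

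All 25 arrays entered a single limma fit of group means in which chips were treated as a random effect (statmod 1.5.0, correlation 0.00457). Two-sided tests were used with the Benjamini-Hochberg adjustment across all genes and a threshold of 0.05; rose and fell mean past it. Named genes were, per comparison, up to 8 rises and 8 falls, the 4 smallest p where fewer than 4 passed, and the 4 widest and 2 narrowest ranges of group means; others are said to be so. The members and lists were chosen with earlier results of these data known. The model was tested on simulated data. Alternatives changed the background correction, normalization, filters, probe rule, chip block, array weights, groups fitted and arrays; repeats without single arrays kept the chip correlation, except that without array 6, which estimated it anew. For arrays, their number limits the precision.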

Additional observations from a re-analysis of the deposited data

Results flagged for a closer look

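Of 60 values (levels of named genes and means over the mitochondrial ribosomal protein genes, by group) that were examined for an array far from the others of its group, 6 had such an array. In all 6 it was array 6 of the old cells with competition (n = 6), which lay below the rest. For a single value chance gives about 1 in 20. The 60 values share arrays, the means contain the named genes and these genes were picked from the same data, so that rate cannot be set against the 6. This array was already set apart above, and the gaps add no separate support. The mean of the 75 genes was 6.55 on that array, with a gap to the next array of 0.867 of the group's range. Mrps18b read 5.93 (gap 0.886 of the range) and Mrpl16 read 6.20 (0.856). Mrps33 read 8.29 (0.806), Mrpl20 6.96 (0.727) and Mrpl40 7.38 (0.637). The part in these values of the higher Cd4 and lower cell division genes on the array was not tested.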

How the results depend on the processing

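Scaling to a common median in place of quantile normalization moved the median log2 difference of the 75 genes most, to -0.275 (old cells without competition minus young cells), -0.359 (old without minus old with competition), -0.168 (TN3 minus TN2), 0.730 (young minus TN3), 0.866 (old with competition minus TN3) and 0.469 (old without minus TN3); the median of all genes moved by up to 0.250, and relative to it the 75 genes stood at -0.105, -0.162, -0.111, 0.481, 0.638 and 0.407. Called genes became 7 of 75, mostly falls, for old without minus young (11 as reported, mostly rises), where 0.727% of all genes rose and 24.6% fell. They became 8, all falls, for old without minus old with (1), where 0.277% of all genes rose and 21.7% fell. For young minus TN3 they became 15, all rises (2), where 19.4% of all genes rose. For old with minus TN3 they became 24, all rises (1), where 18.5% of all genes rose, and for old without minus TN3 they became 0 (2). It reversed Mrpl58 (-0.0636, old without minus young) and, between the old groups, Mrps17 (-0.143) and Mrpl51 (-0.0168; -0.0394 with the mean of all probes). The cause was not tested.

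Normalizing again without array 6, an alternative chosen after seeing the data, gave 3 calls for old with minus young (1 as reported), 18 for old without minus young (11), 2 for TN3 minus TN2 (1), 7 for old with minus TN3 (1) and 4 for old without minus TN3 (2). Array weights gave 6 for old with minus young, where 2.41% of all genes rose and 4.52% fell. They gave 2 for old with minus TN3, 1 for young minus TN3 and 0 for old without minus TN3. Fitting only the groups compared, with fewer arrays behind the spread, gave 17 for old without minus young, 1 for young minus TN3 and 0 each for TN3 minus TN2, old with minus TN3 and old without minus TN3. With the deposited log2 values, without background correction and without the detection filter, 1 gene was called for young minus TN3 and 0 for old without minus TN3, where the median was 0.137 with the deposited values and 0.133 without background correction. The mean of all kept probes gave 2 calls between the old groups, 2 for old with minus TN3 and 1 for young minus TN3. A filter of at least 15 arrays gave 2 for old with minus TN3, and the chip as a fixed block gave 0 for old without minus TN3. Counts of 0 here are limma's. Apart from the shares stated, those of all genes called at these settings are not given here. A change in a count can therefore not be taken as particular to the mitochondrial ribosomal protein genes.

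Leaving out each array in turn gave medians of 0.0508 to 0.237 (old with minus young), 0.181 to 0.249 (old without minus young), 0.0157 to 0.204 (old without minus old with), 0.00587 to 0.128 (TN3 minus TN2), -0.0653 to -0.0130 (young minus TN3), -0.0125 to 0.203 (old with minus TN3) and 0.173 to 0.273 (old without minus TN3). The counts of calls ran, in the same order, from 1 to 3, 8 to 18, 1 to 1, 0 to 2, 1 to 3, 1 to 7 and 0 to 4. Outside the comparison of the old groups, each highest count came without array 6. The shares of all genes called were larger without that array too, as given with each comparison above. No paired analysis was possible because the replicate numbers are in accession order only. Chips shared by the groups allowed the chip as a fixed block, which gave 1 call each for old with minus young and TN3 minus TN2, as reported. Dim genes near the floor of the scale, such as Mrpl21 and Mrps14, are limited by signal over background.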

Other observations

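Mrpl21, detected on 3 of the 25 arrays, was not detected on any array of young cells, old cells with competition or TN3 controls, where its means lay at 4.15, 4.16 and 4.18. Mrps14, detected on 4 arrays, was not detected in old cells with competition or TN2 controls, with means of 4.22 and 4.37. In TN3 against TN2 controls the large subunit genes with a bacterial counterpart had a median of -0.19 (11 of 29 above 0) and those without one a median of 0.20 (13 of 19 above 0); the difference between these classes was not tested.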
